A study of Mus musculus with 9 samples.

Results

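The heat shock chaperones of the cytosol and the mitochondria were followed in mouse liver as a set of 38 genes. They were chosen by name and function, with earlier results of these data known. The set held 2 transcription factors, 3 cytosolic HSP70 genes, 4 HSP110 and BAG exchange factors, 6 J-domain cochaperones, 3 small heat shock proteins, 2 cytosolic HSP90 genes, 7 cochaperones of HSP90 and HSP70, 7 subunits of the CCT ring and 4 mitochondrial chaperones. All 38 were in the count table of 33211 genes, and all 38 were among the 14220 genes that passed the filter on low counts. RNA-seq had been performed on bulk liver of C57BL/6 mice (C57BL6/J in the methods of the study) fed a high-fat diet (HFD) that differed in how it was kept. Per those methods, the mice were males of 8 weeks at the start, were fed for 7 weeks, and received diet that had been kept for 7 days after opening at -20 °C in a freezer (HFDfre) or at 4 °C in a fridge (HFDfri). The labels give 5 HFDfre libraries and 4 HFDfri libraries, and no group on another diet was analysed here. The comparison asked whether storage of the diet altered the liver's gene expression. The labels number the mice but say nothing of cages or extraction days, so every p-value measures the spread between these 9 libraries.

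Chaperones bind unfolded stretches of other proteins and hold them until they fold. HSP70 proteins do this in cycles driven by ATP, J-domain proteins bring them their clients, and HSP110 and BAG proteins make them release the nucleotide. HSP90 takes over late folding steps of kinases and steroid receptors, with a series of cochaperones, and the CCT ring folds actin and tubulin in an enclosed chamber. HSP60 and HSP10 form a similar chamber in mitochondria. When unfolded proteins accumulate in the cytosol, the transcription factor HSF1 is released, forms trimers and binds heat shock elements, which are inverted repeats of the unit GAA in the promoters of many of these genes. Some members are made at all times (Hspa8, Hsp90ab1), and others are almost silent until stress (Hspa1a, Hspa1b). In the liver the set serves a tissue that makes and secretes large amounts of protein.

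The libraries held 58614917 to 69353439 counts. Levels are given as CPM, a gene's counts scaled to the library total after TMM normalization. Transcripts of the mitochondrial genome took 15.4% ± 3.04 (SD) of the counts over the 5 HFDfre libraries and 10.6% ± 2.07 over the 4 HFDfri libraries (two-sided exact permutation p = 0.0397, adjusted over 3 measures 0.119). The ribosomal RNA-like locus Gm26924 took 0.466 to 11.1% of the counts (exact permutation p = 0.214, adjusted 0.321). The summed level of 8 hepatocyte markers was 98408 to 104626 CPM in HFDfre and 87397 to 113830 CPM in HFDfri. Summed markers of Kupffer cells and macrophages (7 of 8 in the table) reached 67.0 to 136 CPM in HFDfre and 70.8 to 101 CPM in HFDfri, those of stellate cells (8 genes) 127 to 198 and 102 to 178 CPM, those of endothelial cells (8 genes) 80.4 to 96.1 and 63.8 to 102 CPM, and those of cholangiocytes, lymphocytes and neutrophils 47.0 CPM at most. In bulk liver, fewer cells of a type and less RNA per cell cannot be told apart. The part of the cell type markers in the results below was not tested. With the share of Gm26924 as a covariate, the median log2 fold change of the 38 members was 0.29, and with TMM factors computed without the mitochondrial genes and Gm26924 it was also 0.29, against 0.28 in the fit reported below. At an unadjusted p under 0.05 there were 16 members with the covariate (19.0% of all genes) and 24 with those TMM factors (21.2%). The fit below had 22 (21.2%). At an adjusted p under 0.05, 0.267% of all genes were called with the covariate, against 1.05% in the fit below.

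The promoters were read from RefSeq (GRCm38.p6, 250 bases before to 50 after each start), where 30 of the 38 genes had an entry, and the heat shock element was searched on both strands. The genes without an entry were Hsf1, Hspa8, Hsp90aa1, Hsp90ab1, Cryab, St13, Cct4 and Hspa9. The motif of 3 alternating units, GAANNTTCNNGAA, was in a promoter of 5 of the 30 genes (Chordc1, Dnajb6, Hspd1, Hspe1 and Hsph1), against 0.662% of the 27025 genes with a promoter. The shorter motif of 2 units, GAANNTTC, which every match of the longer motif also holds, was in 13 of the 30 genes, against 9.04% of all genes. It added Bag3, Cct2, Dnaja1, Fkbp4, Hspa1a, Hspa1b, Hspb1 and Hspb8. Part of the set was chosen as responsive to HSF1, so a higher share than over all genes follows in part from that choice. The stretches below are those of the 5 genes with the longer motif and of the 4 genes with only the shorter one (Bag3, Hspa1a, Hspa1b and Hspb1) for which HFDfri 1 or HFDfri 3 exceeded the mean of the other HFDfri libraries over 1.5-fold, and the capitals mark the motif. Each is written 5′ to 3′ on the strand of the gene. Hspa1a and Hspa1b lie on the minus strand at chr17:34972243-34972272 and chr17:34959325-34959354, Hspb1 on the plus strand at chr5:135887800-135887829, Hsph1 on the minus strand at chr5:149636280-149636309, Bag3 on the plus strand at chr7:128523603-128523632, Chordc1 on the plus strand at chr9:18292259-18292288, Dnajb6 on the plus strand at chr5:29735843-29735872, Hspd1 on the minus strand at chr1:55088054-55088083 and Hspe1 on the plus strand at chr1:55088052-55088081.
Hspa1a: gcgaaactgctgGAAGATTCctggccccaa
Hspa1b: gcgaaactgctgGAAGATTCctggccccaa
Hspb1: gaGAAGTTTCcagatgggggcaGAACCTTC
Hsph1: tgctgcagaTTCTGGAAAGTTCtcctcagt
Bag3: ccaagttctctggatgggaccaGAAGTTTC
Chordc1: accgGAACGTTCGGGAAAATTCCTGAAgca
Dnajb6: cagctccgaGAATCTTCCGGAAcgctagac
Hspd1: cggggccTTCCGGAAGGTTCTAGAAcggac
Hspe1: cggtccgTTCTAGAACCTTCCGGAAggccc

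Hspa1a and Hspa1b carried the same stretch, and their promoters were identical at 296 of 300 positions. Hspb1 held the motif of 2 units in 2 places. Hspd1 and Hspe1, which are transcribed away from each other, shared a stretch read from opposite strands. By GENCODE M21 the stretches of Hspa1a, Hspa1b and Hspb1 lay outside exons, those of Hsph1, Bag3, Chordc1, Dnajb6 and Hspd1 lay in an exon of the gene itself (for Dnajb6 also of Gm5129), and that of Hspe1 lay in an exon of Hspd1. A match is a description of the letters and says nothing of binding in these livers.

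Most of the chaperone genes had a higher level in HFDfri, by a small amount, and none of them passed the test across all genes. The log2 fold change (HFDfri minus HFDfre) was above 0 for 34 of 38 members, against 49.1% of all tested genes, and its median was 0.28, against -0.0068 over all tested genes. Hsf1, Hsf2, Cryab and Trap1 were the 4 members below 0. In the edgeR quasi-likelihood test, 0 members had an adjusted p under 0.05, where 1.05% of all tested genes had one. The lowest adjusted p was 0.0689, for Cct5. At an unadjusted p under 0.05, 21 members were higher in HFDfri, against 11.4% of all genes, and 1 member, Hsf2, was lower, against 9.79%. limma-voom also called 0 members, and 1.04% of all genes. DESeq2 called 6 members at an adjusted p under 0.05, all higher in HFDfri (Ahsa1, Cct5, Dnajb2, Hsp90aa1, Hspa4 and Hspd1), where 8.41% of the 12278 genes with a DESeq2 adjusted p had one under 0.05. DESeq2 gave no p-value for Hspa1a and Hspa1b, so these genes could not be called by it. The libraries of the groups did not overlap for 3 members, Hspa4, Cct4 and Cct5, all with HFDfri higher (4.02% of all genes), and for 0 members with HFDfri lower (3.66%).

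**Figure D1:**
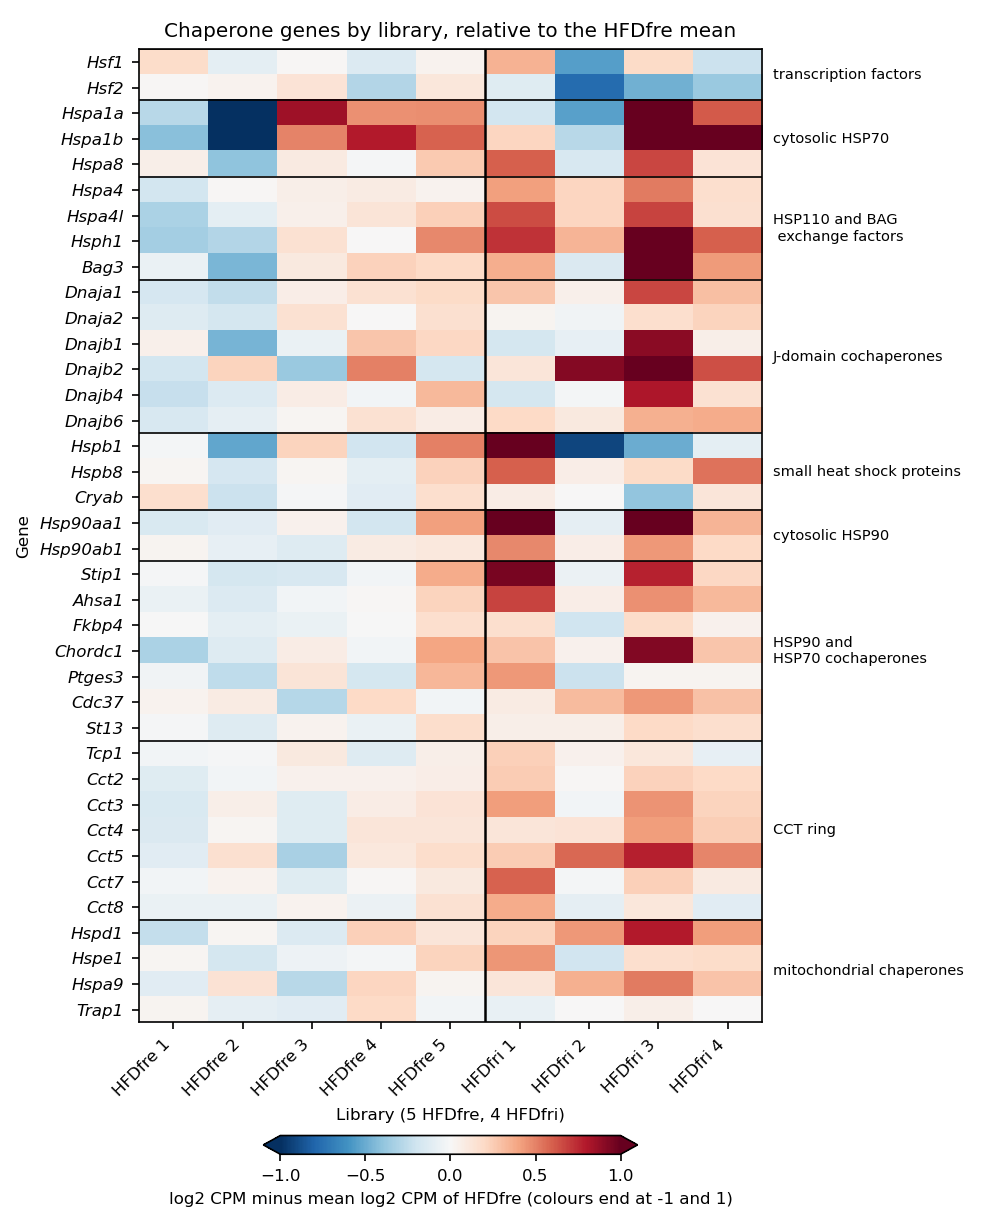
Heat map of the 38 chaperone genes (rows, grouped by role) in the 9 libraries (columns), coloured by log2 CPM minus the mean log2 CPM of the 5 HFDfre libraries, with colours ending at -1 and 1. HFDfri 3 and HFDfri 1 are red across most rows, with library medians of 0.44 and 0.27, while HFDfri 2 stays near the HFDfre libraries, with a median of 0.0055.

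The excess was unevenly spread over the 4 HFDfri mice. HFDfri 3 was the highest of all 9 libraries for 20 of the 38 members (17.3% of all tested genes had their highest level there), and HFDfri 1 was highest for 13 members (15.6% of all genes). HFDfri 4 was highest for 2 members (6.71% of all genes) and HFDfri 2 for 0 (10.7% of all genes). HFDfri 3 lay above every HFDfre library for 30 members, HFDfri 1 for 23, HFDfri 4 for 18 and HFDfri 2 for 7, where 28.4, 24.2, 20.6 and 24.1% of all tested genes did so. The median over the members, as log2 difference from the HFDfre mean, was 0.27, 0.0055, 0.44 and 0.20 in HFDfri 1 to 4 and ran from -0.11 to 0.17 in HFDfre. Without HFDfri 3, 10 members had an unadjusted p under 0.05, where 13.6% of all tested genes had one, and the median log2 fold change was 0.21. Without HFDfri 1, 4 members had an adjusted p under 0.05 (Cct5, Dnajb2 and Hspd1 higher, Hsf2 lower), as did 7.65% of all tested genes. Without HFDfri 2, 1 member did (Hsp90aa1), as did 1.63% of all genes. Without HFDfre 1, the other library whose absence lowered the count at an unadjusted p by over 1.5 times, 14 members had one under 0.05, as did 16.6% of all genes. With neither HFDfri 1 nor HFDfri 3, 7 members did (5 higher and 2 lower), a share near the 17.8% of all genes in that fit. The log2 fold change was then above 0 for 26 of 38, and the median was 0.11. HFDfri 1 and HFDfri 3 had been picked after the values were seen, because most members were highest in them. A lower count and a lower median thus follow from the choice.

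Of the transcription factors, neither was higher in HFDfri. Hsf1, the main activator of the heat shock response, is controlled largely at the protein level. Hsf1 was at 13.6, 11.2, 12.1, 10.9 and 12.2 CPM in HFDfre 1 to 5 and at 15.2, 8.13, 13.6 and 10.3 CPM in HFDfri 1 to 4. The libraries overlapped, HFDfri 1 being the highest and HFDfri 2 the lowest of the 9, and the log2 fold change was -0.021 ± 0.17 (SE) with a 95% confidence interval of -0.38 to 0.34. Its sign depended on the scaling, and it was 0.026 with library totals in place of TMM. HSF2 binds the same elements and forms trimers with HSF1. Hsf2 was at 19.5, 19.8, 21.4, 15.8 and 21.0 CPM in HFDfre 1 to 5 and at 17.8, 11.4, 13.9 and 15.0 CPM in HFDfri 1 to 4. HFDfri 2, 3 and 4 lay below every HFDfre library, while HFDfri 1 lay within their range. Its log2 fold change was -0.43 ± 0.14 (SE, edgeR adjusted p = 0.118). Leaving out HFDfri 3 gave -0.41 and leaving out HFDfri 1 gave -0.55, with an adjusted p of 0.0318.

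The stress-inducible HSP70 genes had the largest fold changes of the 38 members, and these rested on 1 library. Hspa1a and Hspa1b are neighbours in the MHC region (chr17:34969190-34972156 and chr17:34956436-34959238, GRCm38, minus strand) and code for nearly the same protein. Hspa1a was at 1.23, 0.514, 2.72, 2.08 and 2.09 CPM in HFDfre 1 to 5 and at 1.32, 1.02, 22.3 and 2.32 CPM in HFDfri 1 to 4. Hspa1b was at 3.45, 1.65, 6.53, 8.03 and 6.98 CPM in HFDfre 1 to 5 and at 5.36, 3.80, 76.1 and 9.90 CPM in HFDfri 1 to 4. HFDfri 3 held 14.3 times the mean of the other HFDfri libraries for Hspa1a and 12.0 times for Hspa1b, while HFDfri 1 and HFDfri 2 lay within the HFDfre range for both genes. The log2 fold changes were 1.96 ± 0.82 (SE, edgeR adjusted p = 0.200) and 2.16 ± 0.78 (SE, edgeR adjusted p = 0.154). Without HFDfri 3 they were -0.16 and 0.25. In limma-voom over all 9 libraries they were 0.99 (unadjusted p = 0.280) and 1.29 (unadjusted p = 0.154). Since 56.5% of the 100-base windows of the longest Hspa1a transcript and 49.9% of those of Hspa1b occur in another gene, the split of reads between them is uncertain. Their summed counts had a log2 fold change of 2.11 ± 0.79 (SE, edgeR adjusted p = 0.163).

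Hspa8, which codes for the constitutive HSC70, was the most abundant member per kilobase of exon. Hspa8 was at 1056, 765, 1077, 1006 and 1217 CPM in HFDfre 1 to 5 and at 1535, 907, 1612 and 1114 CPM in HFDfri 1 to 4. HFDfri 1 and HFDfri 3 lay above every HFDfre library, and HFDfri 2 and HFDfri 4 lay among them. The log2 fold change was 0.34 ± 0.18 (SE, edgeR adjusted p = 0.312), with a 95% confidence interval of -0.057 to 0.73. With neither HFDfri 1 nor HFDfri 3 it was -0.024. In Hspa8, 32.1% of the windows occur in other genes, mostly Gm15459.

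All 4 exchange factors were higher in HFDfri at an unadjusted p under 0.05 in edgeR, and none passed the adjustment there. In limma-voom the unadjusted p of Bag3 was 0.0848, and those of the others were under 0.05. Hsph1 codes for HSP105, an HSP110 protein that makes HSP70 release ADP. Hsph1 was at 20.7, 21.5, 29.1, 26.3 and 36.7 CPM in HFDfre 1 to 5 and at 43.2, 33.2, 107 and 39.7 CPM in HFDfri 1 to 4. HFDfri 3 held 2.48 times the next highest library, and the other HFDfri libraries lay in or above the upper part of the HFDfre range. Bag3 codes for a partner of HSP70 and of the small heat shock proteins in selective autophagy. Bag3 was at 12.6, 9.56, 14.1, 15.4 and 15.1 CPM in HFDfre 1 to 5 and at 16.9, 11.9, 47.4 and 17.7 CPM in HFDfri 1 to 4. HFDfri 3 again stood alone, at 2.68 times the next highest library. Fitted log2 fold changes were 1.05 ± 0.31 (SE, edgeR adjusted p = 0.101) for Hsph1 and 0.81 ± 0.33 (SE, edgeR adjusted p = 0.189) for Bag3, and without HFDfri 3 they were 0.53 and 0.21. Only 4 members exceeded every other library more than 2-fold in HFDfri 3, namely Hspa1a, Hspa1b, Hsph1 and Bag3, where 27 of the 14220 tested genes did (0.190%). No member did so in any of the other 8 libraries.

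The other HSP110 proteins are encoded by Hspa4 (APG-2) and Hspa4l (APG-1). Hspa4 was at 63.5, 72.6, 74.9, 76.3 and 73.8 CPM in HFDfre 1 to 5 and at 95.8, 83.8, 103 and 81.1 CPM in HFDfri 1 to 4. Every HFDfri library lay above every HFDfre library. Hspa4l was at 12.8, 14.8, 16.4, 17.3 and 18.8 CPM in HFDfre 1 to 5 and at 24.9, 18.4, 25.4 and 17.7 CPM in HFDfri 1 to 4. HFDfri 1 and HFDfri 3 were the highest, and HFDfri 2 and HFDfri 4 lay within the HFDfre range. The log2 fold changes were 0.33 ± 0.10 (SE, edgeR adjusted p = 0.0988) and 0.43 ± 0.15 (SE, edgeR adjusted p = 0.130). Leaving out HFDfri 3 left Hspa4 at 0.27.

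The 6 J-domain genes were all higher in HFDfri on average, 3 of them at an unadjusted p under 0.05. DNAJA1 and DNAJA2 are general partners of HSC70. Dnaja1 was at 173, 164, 204, 216 and 222 CPM in HFDfre 1 to 5 and at 236, 202, 309 and 239 CPM in HFDfri 1 to 4. Dnaja2 was at 82.0, 79.4, 99.9, 89.9 and 100.2 CPM in HFDfre 1 to 5 and at 91.4, 87.9, 101 and 105 CPM in HFDfri 1 to 4. For Dnaja1, HFDfri 3 was the highest, HFDfri 1 and HFDfri 4 were just above the HFDfre range, and HFDfri 2 lay within it. For Dnaja2 the groups overlapped, with a log2 fold change of 0.094 ± 0.10 (SE) and a 95% confidence interval of -0.12 to 0.31. The log2 fold change of Dnaja1 was 0.33 ± 0.14 (SE, edgeR adjusted p = 0.194), and 0.20 without HFDfri 3. In Dnaja1, 24.0% of the windows occur in other genes, most of them in Gm15542, and its exons overlap Smu1 on the opposite strand.

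Dnajb2 and Dnajb6 code for J-domain proteins known for holding aggregation-prone proteins in solution. Dnajb2 was at 7.91, 10.5, 6.93, 12.8 and 7.96 CPM in HFDfre 1 to 5 and at 9.78, 17.0, 18.1 and 14.0 CPM in HFDfri 1 to 4. HFDfri 2, 3 and 4 lay above every HFDfre library, and HFDfri 1 lay within their range. Dnajb6 was at 40.1, 42.1, 45.4, 49.8 and 47.3 CPM in HFDfre 1 to 5 and at 51.5, 47.8, 57.2 and 57.9 CPM in HFDfri 1 to 4. HFDfri 1, 3 and 4 lay above every HFDfre library. In the fit, the log2 fold changes were 0.68 ± 0.21 (SE, edgeR adjusted p = 0.112) and 0.25 ± 0.094 (SE, edgeR adjusted p = 0.160), with 0.56 and 0.22 without HFDfri 3. In Dnajb6, 36.3% of the windows occur in other genes. Dnajb1, the HSP40 partner of inducible HSP70, is given in full because its HFDfri 3 library stood apart, a choice made after its values were seen. Dnajb1 was at 20.2, 14.1, 18.6, 23.6 and 22.4 CPM in HFDfre 1 to 5 and at 17.2, 18.4, 36.4 and 20.3 CPM in HFDfri 1 to 4. Apart from HFDfri 3, the HFDfri libraries lay within the HFDfre range, and the log2 fold change of 0.22 ± 0.22 (SE) became -0.085 without HFDfri 3. Dnajb4, a related partner of HSP70, had a mean level of 23.1 ± 3.56 CPM (SD) over the 5 HFDfre libraries and of 27.2 ± 8.88 CPM over the 4 HFDfri libraries, and its log2 fold change of 0.23 ± 0.19 (SE) became -0.019 without HFDfri 3.

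**Figure D2:**
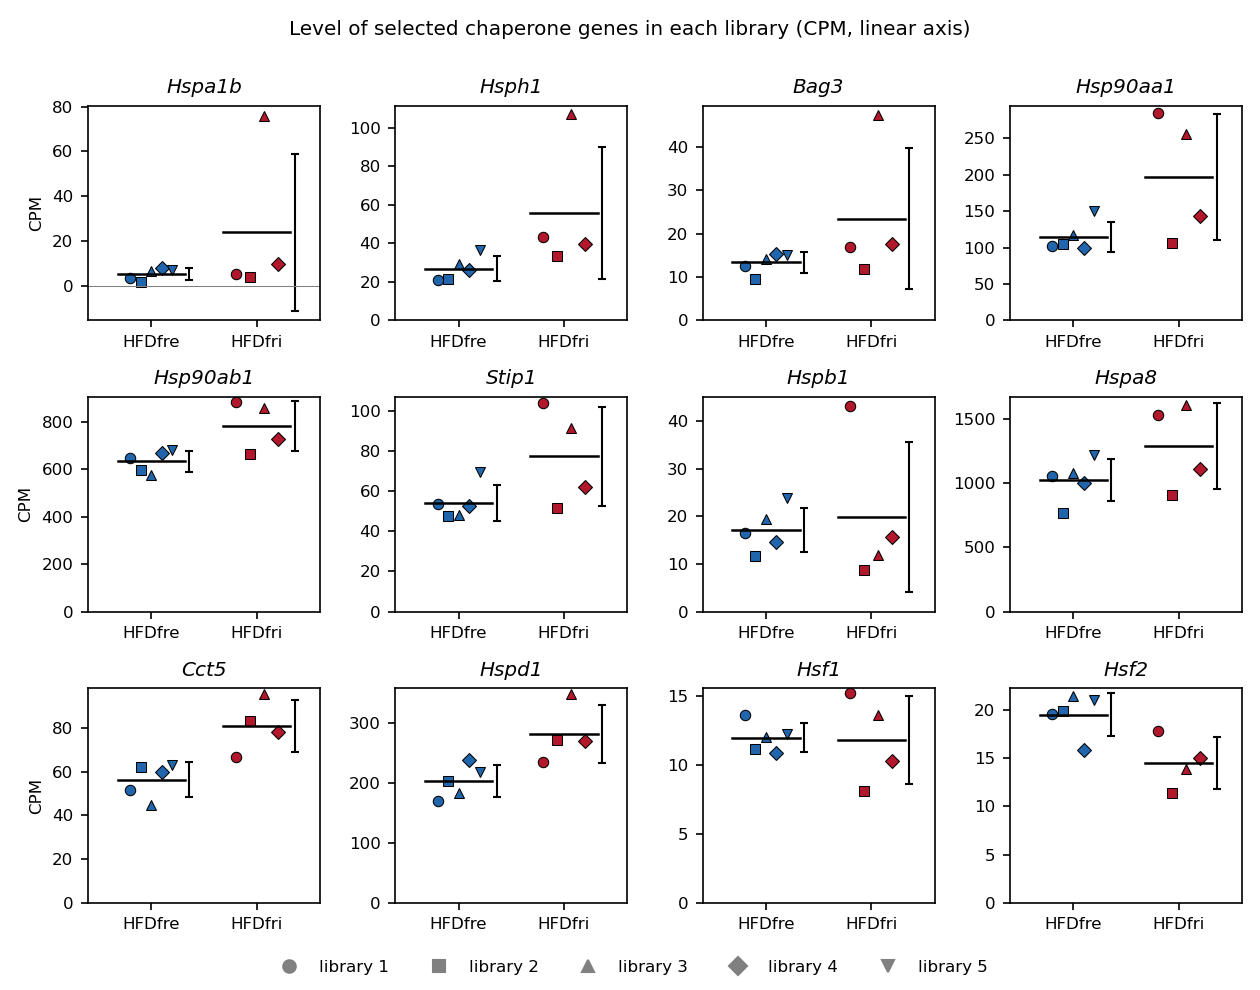
Level of 12 chaperone genes in each library, as CPM on a linear axis, with HFDfre in blue and HFDfri in red. The marker shape gives the library number, the horizontal bar the group mean and the vertical bar 1 SD. HFDfri 3 (triangle) stands alone for Hspa1b, Hsph1 and Bag3, HFDfri 1 (circle) stands alone for Hspb1, both stand high for Hsp90aa1, Stip1 and Hspa8, and for Cct5 all 4 HFDfri libraries lie above the HFDfre libraries.

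The small heat shock proteins hold unfolded clients without ATP. Hspb8, the partner of BAG3, was the most abundant of them. Hspb8 was at 160.1, 141, 159.5, 147 and 185 CPM in HFDfre 1 to 5 and at 238, 165, 179.9 and 230.4 CPM in HFDfri 1 to 4. HFDfri 1 and HFDfri 4 lay above every HFDfre library, and HFDfri 2 and HFDfri 3 lay within their range. Its log2 fold change was 0.36 ± 0.13 (SE, edgeR adjusted p = 0.147). Hspb1, which codes for HSP25, is given in full after its values were seen. Hspb1 was at 16.5, 11.6, 19.5, 14.6 and 23.7 CPM in HFDfre 1 to 5 and at 43.1, 8.82, 11.8 and 15.6 CPM in HFDfri 1 to 4. Here HFDfri 1 was the highest, at 3.57 times the mean of the other HFDfri libraries, and HFDfri 3, at 0.525 times the mean of the others, lay near the bottom of the HFDfre range. The log2 fold change of 0.20 ± 0.39 (SE) became -0.52 without HFDfri 1. In Hspb1, 42.7% of the windows occur in the pseudogene Hsp25-ps1. Cryab, which codes for alphaB-crystallin, was present at a low level, with a mean level of 2.67 ± 0.315 CPM (SD) over the 5 HFDfre libraries and of 2.59 ± 0.400 CPM over the 4 HFDfri libraries and a log2 fold change of -0.044 ± 0.17 (SE). It overlaps Hspb2 on the opposite strand.

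Both cytosolic HSP90 genes were higher in HFDfri at an unadjusted p under 0.05. Hsp90aa1 (chr12:110690605-110702728, GRCm38, minus strand) codes for the inducible form and Hsp90ab1 (chr17:45567775-45573271, minus strand) for the constitutive one. Hsp90aa1 was at 102, 104, 117, 99.7 and 149.9 CPM in HFDfre 1 to 5 and at 285, 106, 255 and 143 CPM in HFDfri 1 to 4. HFDfri 1 and HFDfri 3 held 2.49 and 2.23 times the HFDfre mean, and HFDfri 2 and HFDfri 4 lay within the HFDfre range. Hsp90ab1 was at 647, 598, 577, 668 and 679.7 CPM in HFDfre 1 to 5 and at 885, 662, 857 and 728 CPM in HFDfri 1 to 4. The order of the HFDfri libraries was the same, with smaller distances. The log2 fold changes were 0.79 ± 0.25 (SE, edgeR adjusted p = 0.118) and 0.30 ± 0.11 (SE, edgeR adjusted p = 0.153). With neither HFDfri 1 nor HFDfri 3 they were 0.12 and 0.13, and without HFDfri 2, Hsp90aa1 reached 0.99 with an edgeR adjusted p of 0.0437. In Hsp90aa1, 47.5% of the windows occur in other genes, mostly Gm12346, and in Hsp90ab1 none do.

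All 7 cochaperones of HSP90 and HSP70 were higher in HFDfri on average, 4 of them at an unadjusted p under 0.05. STIP1 (HOP) carries clients from HSP70 to HSP90, and AHA1, the product of Ahsa1, speeds up the ATPase of HSP90. Stip1 was at 53.4, 47.6, 48.0, 52.7 and 69.7 CPM in HFDfre 1 to 5 and at 104, 51.5, 91.7 and 61.9 CPM in HFDfri 1 to 4. Ahsa1 was at 62.7, 59.8, 64.7, 66.3 and 77.1 CPM in HFDfre 1 to 5 and at 105, 68.8, 90.3 and 82.4 CPM in HFDfri 1 to 4. For Stip1 HFDfri 1 and HFDfri 3 lay above every HFDfre library, and for Ahsa1 HFDfri 1, 3 and 4 did, with HFDfri 1 the highest for both. They had log2 fold changes of 0.51 ± 0.19 (SE, edgeR adjusted p = 0.166) and 0.39 ± 0.12 (SE, edgeR adjusted p = 0.113), and without HFDfri 1 they were 0.32 and 0.27. With neither HFDfri 1 nor HFDfri 3, Stip1 was at 0.058 and Ahsa1 at 0.19.

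Chordc1 codes for a zinc-binding cochaperone of HSP90, and CDC37 delivers protein kinases to HSP90. Chordc1 was at 17.4, 19.8, 22.9, 21.2 and 28.5 CPM in HFDfre 1 to 5 and at 26.4, 22.4, 41.2 and 26.3 CPM in HFDfri 1 to 4. Cdc37 was at 49.9, 51.4, 40.0, 55.8 and 47.7 CPM in HFDfre 1 to 5 and at 51.6, 60.7, 65.6 and 59.7 CPM in HFDfri 1 to 4. Chordc1 was high in HFDfri 3 and otherwise within the HFDfre range, while for Cdc37 HFDfri 2, 3 and 4 lay above every HFDfre library. The log2 fold changes were 0.40 ± 0.18 (SE, edgeR adjusted p = 0.230) and 0.28 ± 0.11 (SE, edgeR adjusted p = 0.171), and Chordc1 was at 0.19 without HFDfri 3. Fkbp4 codes for the immunophilin FKBP52 and was the most abundant gene of this group per kilobase. Fkbp4 was at 141, 132, 135, 141 and 159 CPM in HFDfre 1 to 5 and at 159, 123, 161 and 146 CPM in HFDfri 1 to 4. The groups overlapped, with a log2 fold change of 0.054 ± 0.10 (SE) and a 95% confidence interval of -0.17 to 0.27. Ptges3, which codes for p23, had a mean level of 96.9 ± 16.2 CPM (SD) over the 5 HFDfre libraries and of 102 ± 19.9 CPM over the 4 HFDfri libraries, with a log2 fold change of 0.071 ± 0.15 (SE). St13, which codes for the HSP70-interacting protein HIP, had a mean level of 127 ± 10.3 CPM (SD) over the 5 HFDfre libraries and of 138 ± 7.10 CPM over the 4 HFDfri libraries, with a log2 fold change of 0.12 ± 0.087 (SE).

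The 7 CCT subunit genes of the set, which need not be the whole ring, all had a log2 fold change above 0. It ran from 0.080 to 0.52 with a median of 0.23, and these genes held 2 of the 3 members without overlap. Cct5 was at 51.4, 62.3, 44.6, 59.9 and 63.0 CPM in HFDfre 1 to 5 and at 66.6, 83.1, 95.6 and 78.1 CPM in HFDfri 1 to 4. Cct4 was at 53.9, 60.5, 54.8, 64.6 and 64.6 CPM in HFDfre 1 to 5 and at 64.8, 65.5, 79.5 and 70.7 CPM in HFDfri 1 to 4. For Cct5 and Cct4 every HFDfri library lay above every HFDfre library, although HFDfri 1 and HFDfri 2 lay just above the HFDfre range for Cct4. Their log2 fold changes were 0.52 ± 0.13 (SE, edgeR adjusted p = 0.0689) and 0.23 ± 0.095 (SE, edgeR adjusted p = 0.192). Leaving out 1 library at a time kept Cct5 between 0.43 and 0.59, and without HFDfri 1 its edgeR adjusted p was 0.0233. Cct3 was at 48.8, 56.5, 49.8, 57.1 and 59.4 CPM in HFDfre 1 to 5 and at 72.3, 53.2, 73.9 and 63.2 CPM in HFDfri 1 to 4. HFDfri 1, 3 and 4 lay above every HFDfre library for Cct3, whose log2 fold change was 0.27 ± 0.11 (SE, edgeR adjusted p = 0.189).

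The ring subunits of the set did not share 1 order of libraries. Cct8 was at 96.4, 96.3, 103, 97.0 and 112 CPM in HFDfre 1 to 5 and at 130.2, 94.9, 109 and 93.1 CPM in HFDfri 1 to 4. Cct8, the subunit gene of the set with the highest level per kilobase, was highest in HFDfri 1. For Cct8, HFDfri 4 and HFDfri 2 lay below every HFDfre library. Its log2 fold change was 0.080 ± 0.11 (SE), with a 95% confidence interval of -0.16 to 0.32. Tcp1, Cct2 and Cct7 were also highest in HFDfri 1, and Cct3, Cct4 and Cct5 in HFDfri 3. Cct7 had a mean level of 65.1 ± 3.60 CPM (SD) over the 5 HFDfre libraries and of 77.0 ± 14.9 CPM over the 4 HFDfri libraries and a log2 fold change of 0.24 ± 0.12 (SE). Cct2 had a mean level of 78.7 ± 4.05 CPM (SD) over the 5 HFDfre libraries and of 89.0 ± 6.50 CPM over the 4 HFDfri libraries and a log2 fold change of 0.18 ± 0.083 (SE). Tcp1 had a mean level of 119 ± 7.14 CPM (SD) over the 5 HFDfre libraries and of 125.6 ± 11.5 CPM over the 4 HFDfri libraries and a log2 fold change of 0.081 ± 0.089 (SE). Exons of Tcp1 overlap Mrpl18 and Acat3, those of Cct7 overlap Pradc1 and those of Cct8 overlap Usp16, all on the opposite strand, and whether strand was used in counting is not given in the sources used here.

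Of the mitochondrial chaperones, Hspd1 and Hspa9 were higher in HFDfri at an unadjusted p under 0.05, and Hspe1 and Trap1 were not. Hspd1 (chr1:55077835-55088243, GRCm38, minus strand) codes for HSP60 and Hspe1 (chr1:55088132-55091307, plus strand) for its lid HSP10. Hspd1 was at 171, 204, 184, 238 and 219 CPM in HFDfre 1 to 5 and at 235, 272, 349 and 269.8 CPM in HFDfri 1 to 4. Hspe1 was at 105, 91.9, 99.8, 102 and 121 CPM in HFDfre 1 to 5 and at 141, 90.7, 117 and 117 CPM in HFDfri 1 to 4. For Hspd1, HFDfri 2, 3 and 4 lay above every HFDfre library, while for Hspe1 only HFDfri 1 did, and HFDfri 2 lay below all of them. The pair had log2 fold changes of 0.47 ± 0.13 (SE, edgeR adjusted p = 0.0919) and 0.16 ± 0.12 (SE, edgeR adjusted p = 0.490), and without HFDfri 1 Hspd1 reached 0.54 with an edgeR adjusted p of 0.0311. Hspa9 codes for mortalin, the HSP70 of the mitochondrial matrix and the motor of protein import. Hspa9 was at 222, 266, 198, 279 and 245 CPM in HFDfre 1 to 5 and at 262, 307, 345 and 293 CPM in HFDfri 1 to 4. HFDfri 2, 3 and 4 lay above every HFDfre library, and the log2 fold change was 0.32 ± 0.12 (SE, edgeR adjusted p = 0.164). Trap1, the mitochondrial HSP90, had a mean level of 123 ± 10.9 CPM (SD) over the 5 HFDfre libraries and of 123 ± 4.84 CPM over the 4 HFDfri libraries, with a log2 fold change of -0.0050 ± 0.087 (SE) and a 95% confidence interval of -0.20 to 0.19. The exons of Hspd1 and Hspe1 overlap on opposite strands, and 26.9% of the Hspd1 windows occur in other genes.

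**Figure D3:**
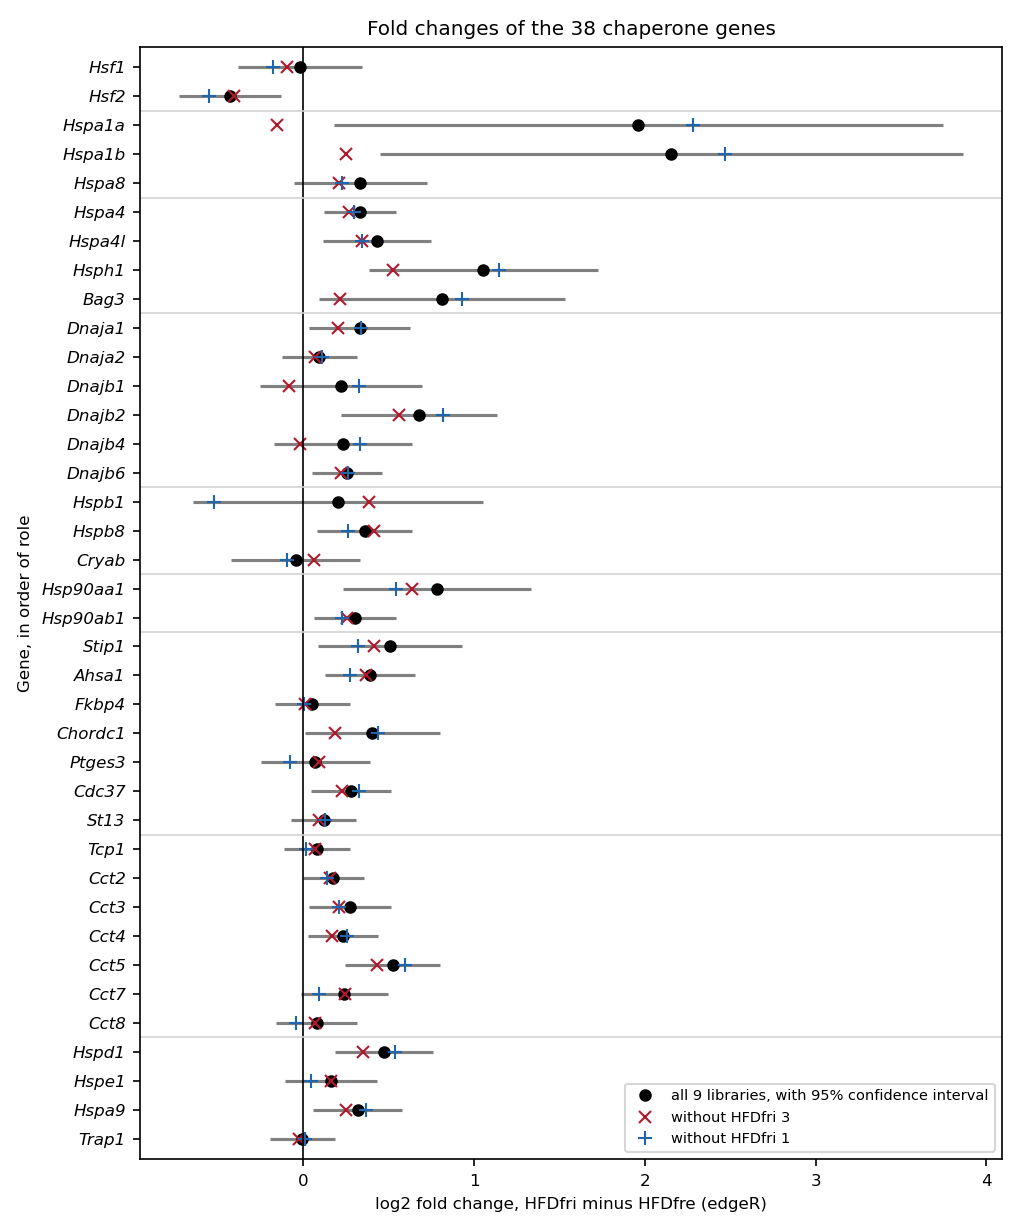
Log2 fold change (HFDfri minus HFDfre) of the 38 members in order of role, with the estimate from all 9 libraries and its 95% confidence interval as a dot and line, the estimate without HFDfri 3 as a red cross and that without HFDfri 1 as a blue plus. Hspa1a moves from 1.96 to -0.16 and Hspa1b from 2.16 to 0.25 without HFDfri 3, and Hspb1 moves from 0.20 to -0.52 without HFDfri 1. Without HFDfri 3, Hsph1 also moves from 1.05 to 0.53 and Bag3 from 0.81 to 0.21, and Dnajb1 and Dnajb4 move below 0. Without HFDfri 1, Ptges3 and Cct8 move below 0. Cct5 stays between 0.43 and 0.59.

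HFDfri 3 and HFDfri 1 differed in which chaperones were high. Against the mean of the other HFDfri libraries, 7 members exceeded 1.5-fold in HFDfri 3 (Hspa1a, Hspa1b, Bag3, Hsph1, Dnajb1, Dnajb4 and Chordc1), where 7.22% of all tested genes did. In HFDfri 1, 3 other members did (Hspb1, Hsp90aa1 and Stip1), a smaller share than the 11.7% of all genes. By the same measure, Hsp90aa1 and Stip1 were at 1.44 and 1.26 in HFDfri 3, and only Hspb1, at 0.525, was low there. Dnajb1 and Dnajb4 were at 1.84 and 1.73 times the HFDfre mean in HFDfri 3 and at 0.869 and 0.879 times in HFDfri 1. Hsp90aa1 and Stip1 were at 2.23 and 1.69 times the HFDfre mean in HFDfri 3 and at 2.49 and 1.92 times in HFDfri 1, so that they were high in both libraries. These ratios are between single libraries and have no replicate check.

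**Figure D4:**
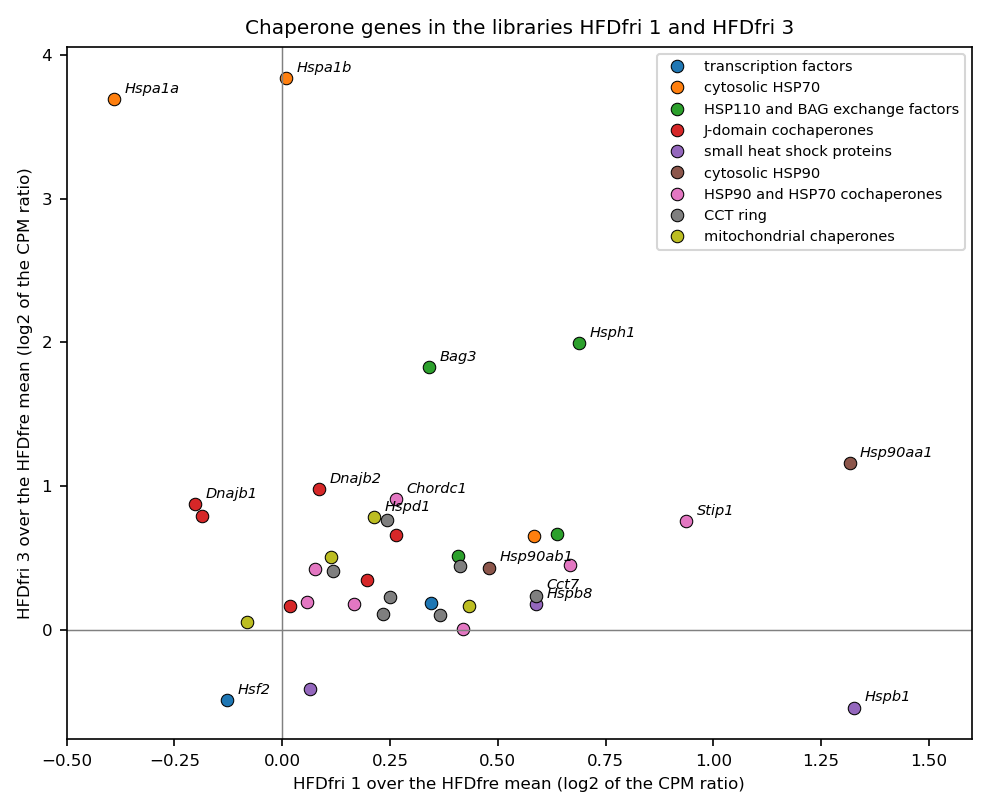
Each of the 38 members as a point, coloured by role, with the log2 ratio of HFDfri 1 to the HFDfre mean on the x axis and that of HFDfri 3 on the y axis. Hspa1a and Hspa1b lie high on the y axis (12.9 and 14.3 times the HFDfre mean in HFDfri 3) and near 0 or below on the x axis (0.763 and 1.01 times in HFDfri 1), while Hspb1 lies far right and below 0 (2.51 times in HFDfri 1 and 0.688 times in HFDfri 3).

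The levels per kilobase of exon spanned a wide range. In HFDfre, Hspa8 was at 238 ± 38.3 CPM per kilobase (SD, n = 5) and Hsp90ab1 at 211 ± 14.8, and these neighbours did not differ beyond their spread. Hspb8 (81.3 ± 8.69), Hspd1 (76.9 ± 10.2) and Hspe1 (70.5 ± 7.23) came next, again within their spread. At the bottom were Hsf1 at 1.69 ± 0.151, Hspa4l at 1.36 ± 0.197 and Hspa1a at 0.582 ± 0.290 CPM per kilobase. The order says only how transcripts compare within liver, and it depends on the length used. Exon lengths were taken from all annotated transcripts. For Hsf1 this gave 7099 bases, against 3133 in its longest transcript.

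Genes of related lists that were no members were counted in the same way. Over all tested genes, 49.1% had a log2 fold change above 0. In edgeR, 11.4% of all tested genes were higher and 9.79% lower at an unadjusted p under 0.05. At an adjusted p under 0.05, 1.05% were called. Of 46 tested genes of a list of further HSP70, BAG, J-domain, HSP90 cochaperone and prefoldin genes, 25 were higher and 21 lower in HFDfri, 5 and 7 of them at an unadjusted p under 0.05, and the median log2 fold change was 0.029. Of 14 further mitochondrial chaperone and protease genes, 5 were higher and 9 lower, with 2 and 2 at an unadjusted p under 0.05 and a median of -0.052. No gene of either list had an edgeR adjusted p under 0.05. Of 16 chaperones and folding enzymes of the ER lumen, all 16 were higher, 11 at an unadjusted p under 0.05 and 0 at an adjusted one, with a median of 0.56. That list reached a mean log2 CPM of 7.70, 6.48, 7.73 and 6.81 in HFDfri 1 to 4, with HFDfre libraries from 6.52 to 6.78. The mean over the 38 members was 5.99, 5.64, 6.31 and 5.88 in HFDfri 1 to 4, with HFDfre libraries from 5.47 to 5.85. Both lists were thus highest in HFDfri 3, followed by HFDfri 1, HFDfri 4 and HFDfri 2. Among the members without that order were Hspa1a and Hspa1b, which were high in HFDfri 3 and within the HFDfre range in HFDfri 1.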

How the data were processed

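Liver RNA of mice fed HFDfre (5 libraries) or HFDfri (4 libraries) was isolated with TRIzol and sequenced as paired-end Illumina reads, according to the study's methods. The library kit is NEBNext Ultra in the labels and KAPA HyperPrep in the methods, and which was used was not settled here. The submitters' processing notes name HISAT2, StringTie and the build mm10, without versions. Neither the annotation nor a strand setting is given in the sources used here. The values the authors deposited were read as estimated counts per gene, unscaled, and rounding to whole numbers left them as they were. Low values pile up at multiples of 4 (3990 gene and library pairs hold the value 4, against 2172 with 3 and 1840 with 5). The cause was not tested, and the size of counting error is then only approximate.

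Genes were kept with filterByExpr by group and tested by edgeR 4.0.16 (quasi-likelihood F-test, R 4.3.3) after TMM normalization, without a covariate, adjusted by Benjamini-Hochberg over 14220 genes. Each standard error is the size of the log2 fold change over the square root of F. A prior count of 2 was used for log2 CPM. The study used DESeq2, which was an alternative here (version 1.42.0), as was limma-voom (limma 3.58.1). Other alternatives were the scaling, the filter on low counts, counts divided by 4, robust dispersion, Hspa1a and Hspa1b added together, a replicate block, and the absence of each library. The share of Gm26924 as a covariate and the absence of both HFDfri 1 and HFDfri 3 were added after the data were seen. On data simulated from this comparison (13933 genes), the test recovered 69 of 98 genes changed by a log2 of 1 and 83 of 96 changed by 2, with 9 false among 161 calls. Changes smaller than a log2 of 1, such as the members' median of 0.28, were not simulated. The recovery thus does not tell how often such changes would be called.

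The 38 genes and all lists were chosen with earlier results of these data known, so no list gets a test or a p-value of its own. The value in every library is given for members with an unadjusted p under 0.05, for Hsf1, Hspa1a and Hspa1b, and for the member of each role with the highest counts per kilobase of exon. Coordinates and exon lengths are from GENCODE M21 (GRCm38), which holds 96.3% of the gene identifiers in the table. Transcripts were compared between genes in windows of 100 bases.

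The labels give the groups the same replicate numbers, 1 to 4. The deviations of same-numbered libraries from their group means correlated at 0.027, 0.081, -0.14 and 0.034 across genes, so the replicate numbers were not taken to pair the mice. The labels also hold another number for each library, in brackets, and a pairing by that number was not checked.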

Additional observations from a re-analysis of the deposited data

Results flagged for a closer look

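Dixon's test for a library apart from its group was run on 82 sets of values (each member's CPM in each group, and 3 library measures), of which chance would give 4.1, and it picked out 6. On log2 CPM it picked out 1 of the members' sets, so most of these depend on the linear scale. In HFDfri, HFDfri 3 stood apart for 5 members. Hspa1a was at 22.3 CPM there, against 1.02 to 2.32 in the other libraries of the group, a gap of 0.939 of the range. For Hspa1b the values were 76.1 against 3.80 to 9.90 CPM, a gap of 0.916 of the range. Hsph1 was at 107 against 33.2 to 43.2 CPM, with a gap of 0.864. Bag3 was at 47.4 against 11.9 to 17.7 CPM, with a gap of 0.837, and Dnajb1 at 36.4 against 17.2 to 20.3 CPM, with a gap of 0.836. In HFDfre, Stip1 was at 69.7 CPM in HFDfre 5 and at 47.6 to 53.4 CPM elsewhere, with a gap of 0.736.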

How the results depend on the processing

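The count of members with an adjusted p under 0.05 was 0 in edgeR (1.05% of all genes) and 6 in DESeq2 (8.41% of the 12278 genes with a DESeq2 adjusted p). It was 0 to 4 in edgeR when 1 library was left out. The 4 came without HFDfri 1, where 7.65% of all tested genes had one. The count at an unadjusted p under 0.05 was 22 (21.2% of all genes). When 1 library was left out it was 10 to 26, and the median log2 fold change of the members was 0.21 to 0.34. The 10 came without HFDfri 3 (13.6% of all genes) and the 26 without HFDfri 2 (19.4% of all genes). With neither HFDfri 1 nor HFDfri 3 the count was 7, a share near the 17.8% of all genes in that fit, and the median was 0.11. That setting was picked after the values were seen, because most members were highest in those libraries, so lower values follow from the choice. With the replicate number as a block, 20 members had an unadjusted p under 0.05 (19 higher and 1 lower, against 17.8% of all genes), 0 members and 0 of all tested genes had an adjusted one, and the median was 0.29. Of the 4 pairs of same-numbered libraries, none correlated over 0.1.

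The sign turned under some settings for members near 0 and for others, among them Hspa1a, whose log2 fold change over all 9 libraries was 1.96, and Hspa8, at 0.34. With library totals in place of TMM, Hsf1 was at 0.026, Cryab at 0.013 and Trap1 at 0.054, and with TMM without mitochondrial genes and Gm26924 Trap1 was at 0.0069. Hspb1 was at -0.079 in limma-voom. With Gm26924 as a covariate, Hsf1 was at 0.035, Trap1 at 0.027, Hspb1 at -0.055 and Ptges3 at -0.029. With neither HFDfri 1 nor HFDfri 3, Hspa1a was at -0.058, Hspa8 at -0.024, Dnajb1 at -0.036, Hspb1 at -0.50, Cryab at 0.053, Fkbp4 at -0.083, Ptges3 at -0.11, Tcp1 at -0.025, Cct8 at -0.11 and Hspe1 at -0.0040. When 1 library was left out, Hsf1 ran from -0.18 to 0.12, Trap1 from -0.040 to 0.047, Cryab from -0.10 to 0.061, Hspb1 from -0.52 to 0.45, Ptges3 from -0.078 to 0.16, Cct8 from -0.042 to 0.14, Hspa1a from -0.16 to 2.32, Dnajb1 from -0.085 to 0.33 and Dnajb4 from -0.019 to 0.33. The cause of these shifts was not tested.

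With 4 and 5 libraries, the 95% confidence interval of a member's log2 fold change reached from 0.18 to 3.74 for Hspa1a and from -0.20 to 0.19 for Trap1, so small differences were not detectable for the members that varied most between mice.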

Other observations

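Lists that the comparison of diets did not turn on were counted beside the chaperones. Of 13 tested core clock genes, 6 were higher and 7 lower in HFDfri. Their median log2 fold change was -0.032. Dbp, a clock output gene, was the 1 gene of the list with an edgeR adjusted p under 0.05, where 1.05% of all tested genes had one. Dbp was at 82.4 CPM in HFDfre and 47.4 CPM in HFDfri, with a log2 fold change of -0.80 ± 0.13 (SE, adjusted p = 0.0293). Both cold-inducible RNA-binding protein genes of the list were lower in HFDfri, with a median of -0.27 and a lowest adjusted p of 0.304. Of 17 tested immediate early genes, 9 were higher and 8 lower (median 0.00011).

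Ratios within 3 pairs of related members were computed per kilobase of exon, and the pairs were chosen after their values were seen. The ratio of Hspa1b to Hspa1a was 2.54 to 4.09 in HFDfre and 4.31, 3.93, 3.61 and 4.52 in HFDfri 1 to 4, so HFDfri 3, where both genes were high, lay within the range of the other libraries (two-sided exact permutation p = 0.0635, adjusted over 3 ratios 0.190). Inducible over constitutive HSP90 (Hsp90aa1 over Hsp90ab1) was 0.114 to 0.168 in HFDfre and 0.246, 0.122, 0.227 and 0.150 in HFDfri 1 to 4 (exact permutation p = 0.183, adjusted 0.206). Hspd1 over Hspe1, the ring and the lid of the mitochondrial chamber, averaged 1.10 ± 0.164 (SD) over the 5 HFDfre libraries and 1.39 ± 0.356 over the 4 HFDfri libraries (exact permutation p = 0.206), with 0.935 in HFDfri 1 and 1.67 in both HFDfri 2 and HFDfri 3.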
